A study of Mus musculus with 36 samples.

Results

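The genes of the interleukin 7 receptor pathway were examined in DNase-seq data of B3 cells, a mouse pre-B cell line. The 10 genes were the receptor chain Il7r, the kinases Jak1 and Jak3, the transcription factors Stat5a and Stat5b, the inhibitors Socs1, Socs2, Socs3 and Cish, and the kinase gene Pim1. Their members were the DNase hypersensitive sites (DHS, stretches of chromatin open to the enzyme DNase I) that overlap the gene body of one of them, or the 10 kb on either side, in the GENCODE vM21 annotation of GRCm38 (mm10). This rule, which uses position alone, gave 48 of the 52788 DHS in the table.

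DNase I accessibility was measured in 36 libraries, 18 of each of 2 lines, with 3 biological replicates in each of 12 groups at 0, 2, 6, 12, 18 and 24 h. Ikaros cells carry a retroviral (MSCV) construct that encodes HA-tagged Ikaros fused to ERt2, a hormone-binding domain, followed by IRES-GFP. Control cells carry a vector with ERt2 and IRES-GFP but no Ikaros. Both are transduced B3 lines sorted by GFP, and 4-hydroxytamoxifen at 0.5 µM moves the fusion protein into the nucleus. According to the labels every sample was given the drug, but the methods describe the 0 h cells as untreated and harvested on their own, so at 0 h the effects of time and of harvest cannot be told apart. Replicates 4, 5 and 6 belong to batches 11, 12 and 13. Values are log2 of the normalised read density (RPKM scale, that is, scaled to DHS length and library size) after the authors' noise removal, and library medians lay between 3.90 and 4.11. The table holds no read counts and the methods state only the least depth a replicate had to reach, so counting error could not be given. In bulk data, fewer cells with an open site and less opening per cell cannot be told apart.

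Interleukin 7 drives survival and division of early B cells. It brings Il7r together with the common gamma chain, the kinases Jak1 and Jak3 bound to their tails phosphorylate STAT5, and STAT5 dimers bind DNA at the palindrome TTCNNNGAA. Among the best known STAT5 targets are Cish and the Socs genes, whose products damp the same pathway, and Pim1, a survival kinase. Ikaros, encoded by Ikzf1, promotes the step at which pre-B cells stop dividing and mature. The label of the cells was checked by promoter DHS (DHS within 1000 bp of a transcription start site, TSS). Among the pre-B markers Pax5, Ebf1, Cd79a, Cd79b, Vpreb1, Igll1, Blnk and Rag1 had one, while Rag2 had none. Of 6 T cell markers 0 had one, of 5 myeloid markers 1 (Lyz2), of 3 erythroid markers 1 (Klf1) and of 2 muscle markers 0.

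The members comprised 19 promoter DHS (39.6%, against 25.9% of all DHS), 17 intronic, 11 intergenic and 1 exonic DHS. Their median width was 210 bp against 500 bp over all DHS, and their median GC content was 53.5% against 50.0%. Of the promoter DHS, 15 lay at a TSS of the pathway gene itself. The rest were promoters of neighbours, namely Unc13a in the Jak3 window, Ghdc and Gm24358 in the Stat5b window, and 5730420D15Rik beside Socs2. Stat5a and Stat5b stand back to back, and 6 DHS counted for both. The other counts were 3 for Il7r, 9 for Jak1, 3 for Jak3, 2 for Socs1, 5 for Socs2, 4 for Socs3, 6 for Cish and 4 for Pim1.

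Of the 10 genes, Cish, an inhibitor that STAT5 itself induces, differed most clearly between the lines. Its promoter DHS was less accessible in Ikaros cells than in control cells at every time from 2 h on, while the lines overlapped at 0 h. The lines were compared within each time with limma, using Benjamini-Hochberg adjustment over all 52788 DHS and a threshold of 0.05. At 12, 18 and 24 h 1 member DHS passed, in each case the Cish promoter, where 1.31%, 0.699% and 1.33% of all DHS passed. At 2 h and 6 h 0 members passed, against 0.195% and 0.578% of all DHS. At an unadjusted limma p under 0.05 there were 11 and 10 of 48 members, against 5294 and 7263 of all 52788 DHS. At 0 h 8 of 48 members passed, 7 of them higher in Ikaros cells, against 12.9% of all DHS, a share near the background. Lines without overlap within a time were common. They made up 23.6%, 13.6%, 22.0%, 22.7%, 23.2% and 25.5% of all DHS at 0, 2, 6, 12, 18 and 24 h. Among the members the shares were 22.9%, 22.9%, 31.25%, 31.25%, 20.8% and 31.25%. In the heat map of differences, the Cish block is lower in Ikaros cells at every position and time from 2 h on except 1 DHS at 18 h, and the Il7r, Jak1 and Stat5b blocks hold both signs.

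**Figure D1:**
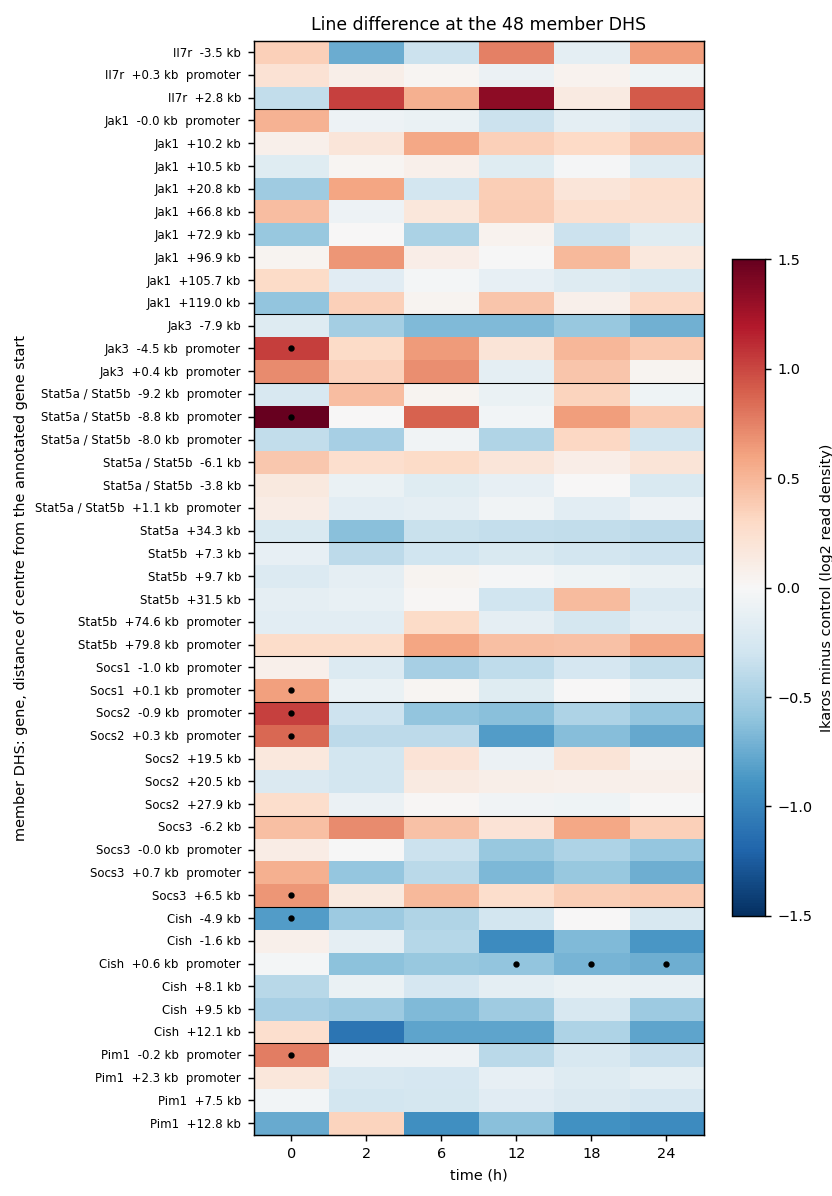
Ikaros minus control difference in log2 read density (colour) at the 48 member DHS (rows, by gene and distance of the DHS centre from the annotated gene start, for shared DHS from that of Stat5a) at 6 times (columns), each the difference of 2 means of 3 libraries. Black dots mark the DHS with a limma adjusted p under 0.05, which at 12, 18 and 24 h is the Cish promoter alone.

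As no single time had more than 3 libraries per line, the difference was also averaged over the 5 times from 2 h to 24 h in the same limma fit. This comparison was added after the values had been seen. It called 21 of 48 members, 15 lower and 6 higher in Ikaros cells, against 29.5% of all DHS. The members' median was -0.10, against 0.04 over all DHS. The 12 deposited group means span only 6 of 11 possible dimensions after the noise removal. To the extent that the groups are thus not independent, the p-values of this and every other comparison here are too small. Of the 21 calls, 8 held under every alternative setting, and 2 were ended by leaving out single libraries (the Cish DHS 4.9 kb upstream in 20 of 30 cases and a Jak1 intron DHS in 9 of 30).

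Il7r, which encodes the interleukin 7 receptor alpha chain, did not pass the test at its promoter in any comparison. The promoter DHS (chr15:9529638-9530153) stood at 4.15, 4.12 and 4.04 in the control and at 4.37, 4.16 and 4.44 in the Ikaros libraries at 0 h. At 24 h it stood at 4.09, 3.85 and 4.30 in control and 4.26, 3.74 and 4.04 in Ikaros libraries. The lines thus did not overlap at 0 h and overlapped fully at 24 h. The difference was 0.22 at 0 h (adjusted p = 0.470) and -0.07 ± 0.19 (SE) at 24 h (adjusted p = 0.916), and the average over 2 to 24 h was 0.00 ± 0.08 (SE, adjusted p = 0.978). An intron DHS of 96 bp, 2.8 kb into the gene, had the largest positive member differences at 2, 12 and 24 h, of 1.03, 1.35 and 0.92 (adjusted p = 0.442, 0.135 and 0.358). Its control libraries spread from 1.75 to 4.30 over the times from 2 h, and its Ikaros libraries from 3.14 to 4.30. Its average of 0.79 passed (adjusted p = 0.00478) but not without replicate 6 (0.61, adjusted p = 0.109). The intergenic DHS 3.5 kb upstream had an average of 0.03 (adjusted p = 0.935).

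Jak1 and Jak3 encode the kinases bound to the receptor tails. The Jak1 promoter DHS was the most accessible of all members, with a mean of 5.59 over 36 libraries (97.3rd percentile of all DHS). Its 24 h values of 5.71, 5.50 and 5.85 in control and 5.46, 5.57 and 5.42 in Ikaros libraries overlapped, with a difference of -0.20 ± 0.21 (SE, adjusted p = 0.729). The 8 intronic DHS of the Jak1 window, 1 of them beyond the end of Jak1 itself, had averages from -0.19 to 0.37. Of these 1 passed (10.2 kb into the gene, 0.37, adjusted p = 0.0305). The Jak3 promoter DHS had an average of 0.27 (adjusted p = 0.087), and its 0 h difference of 0.70 missed the threshold (adjusted p = 0.0794).

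In the Jak3 window 7.9 kb upstream of the gene, an intronic DHS of the neighbour Unc13a (chr8:71668102-71668602) was lower in Ikaros cells. Its 15 Ikaros libraries from 2 h to 24 h lay between 4.10 and 4.75 (median 4.48), all below the 15 control libraries, which lay between 4.76 and 5.54 (median 5.06). Ikaros 0 h libraries stood at 4.48, 4.53 and 4.99 and control 0 h libraries at 4.99, 5.06 and 4.54, so the lines overlapped there. The averaged difference was -0.62 (adjusted p = 7.3e-06). The promoter DHS of Unc13a went the other way, with 0 h values of 5.13, 5.24 and 4.59 in Ikaros and 3.51, 4.07 and 4.26 in control libraries (difference 1.04, adjusted p = 0.00358) and an average of 0.40 (adjusted p = 0.00333). No single library ended the 0 h call, while leaving out replicate 4 or 5 as a whole did (adjusted p = 0.0994 and 0.0562), and the average was lost without replicate 5 (0.29, adjusted p = 0.165).

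Stat5a and Stat5b encode the 2 STAT5 proteins. The Stat5a promoter DHS stood at 4.48, 4.33 and 4.26 in control and 4.25, 4.24 and 4.37 in Ikaros libraries at 24 h. These overlapped, with a difference of -0.07 ± 0.19 (SE, adjusted p = 0.912) and an average of -0.12 (adjusted p = 0.304). Of the 3 Stat5b promoter DHS, the one 164 bp from the start had the largest 0 h difference of any member. It stood at 5.22, 5.17 and 3.91 in Ikaros and 2.97, 3.61 and 1.78 in control libraries, without overlap (difference 1.98, adjusted p = 0.00307). Later differences were 0.89 at 6 h and 0.62 at 18 h (adjusted p = 0.341 and 0.574), the largest positive values of any member at those times, against 0.00, -0.04 and 0.40 at 2, 12 and 24 h (adjusted p = 0.999, 0.982 and 0.731). Its average was 0.37 (adjusted p = 0.131). Without the trend with level, GC content and width, its 0 h difference was 0.63 and missed the threshold (adjusted p = 0.371). The other Stat5b promoter DHS had averages of 0.13 and -0.19 (adjusted p = 0.333 and 0.0944). The Ghdc promoter in the Stat5b window was higher in Ikaros cells (average 0.47, adjusted p = 3.1e-05), and an exonic DHS of Stat3 in the Stat5a window was lower (average -0.42, adjusted p = 0.00346, lost without replicate 6 at 0.144 and without the trend with level, GC content and width at 0.0782). An intron DHS of Stat5b 7.3 kb into the gene was lower too (average -0.30, adjusted p = 0.0207, and 0.0872 without that trend).

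Cish encodes a protein that binds phosphorylated receptor tails and limits STAT5 activation. Its promoter DHS (chr9:107296321-107296984) holds 4 palindromes TTCNNNGAA in 2 pairs, shown here because no other member holds more than 2. The sites lie in an annotated UTR of Cish. Both stretches run 5′ to 3′ on the plus strand of GRCm38, chr9:107296655-107296682 and chr9:107296763-107296790, with the palindromes in capitals.
Cish first pair: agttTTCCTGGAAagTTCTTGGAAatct
Cish second pair: gTTCTAGGAAgatgaggcTTCCGGGAAg
Of all DHS, 10.0% held at least 1 such palindrome, 0.748% at least 2 and 0.00758% (4 DHS) at least 4. A match is a description of the letters and shows no binding.

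The Cish promoter stood at 4.85, 4.88 and 4.61 in control and at 4.65, 4.95 and 4.66 in Ikaros libraries at 0 h. At 2 h the values were 5.05, 5.09 and 4.69 in control and 4.37, 4.11 and 4.48 in Ikaros libraries. At 6 h they were 4.87, 4.96 and 4.82 in control and 4.26, 4.16 and 4.52 in Ikaros libraries. From 2 h on no Ikaros library reached the lowest control library. At 12 h control libraries stood at 4.64, 4.60 and 4.83 and Ikaros libraries at 4.01, 4.01 and 4.27. At 18 h control libraries stood at 4.95, 4.69 and 5.05 and Ikaros libraries at 4.21, 4.39 and 4.01. At 24 h control libraries stood at 4.70, 4.80 and 4.90 and Ikaros libraries at 4.08, 4.18 and 3.94. The highest of the 15 Ikaros libraries from 2 h on, at 4.52, lay below the lowest of the 18 control libraries, at 4.60. Over all DHS, 0.288% had all 15 Ikaros libraries of 2 to 24 h below the 15 control libraries and 0.368% had them above. Among the members 2 were below, this promoter and the Unc13a intron DHS, and 0 were above.

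The difference at the Cish promoter was -0.03 at 0 h (adjusted p = 0.937), -0.62 at 2 h (adjusted p = 0.0809), -0.57 at 6 h (adjusted p = 0.0783), -0.59 at 12 h (adjusted p = 0.0458), -0.70 at 18 h (adjusted p = 0.0258) and -0.74 ± 0.15 (SE) at 24 h (adjusted p = 0.0149). Within batches, it was negative in 15 of 15 comparisons from 2 h to 24 h. That follows from the lack of overlap between the lines and is no further support. At 24 h the difference was -0.62, -0.62 and -0.96 in replicates 4, 5 and 6. The averaged difference was -0.64 ± 0.07 (SE, adjusted p = 1.1e-07). It was called under all 40 alternatives (adjusted p from 7.4e-08 to 5.2e-04). The calls at single times were less stable. At 12 h each of the 6 libraries ended the call when left out (adjusted p from 0.0621 to 0.179), as did the replicate block (0.0655). At 18 h it was ended without replicate 4 (0.0837) or 6 (0.104) of control or 4 (0.102) or 6 (0.156) of Ikaros, and at 24 h without replicate 6 of control (0.0661) or replicate 4 (0.0677) or 6 (0.0662) of Ikaros. With the compared groups alone the 24 h call was lost as well (0.0541), and it was lost under 7 of 16 alternatives in all.

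The other Cish DHS were narrow and less certain. In Ikaros cells 4 of the 5 were lower in the averaged comparison. These included the DHS 1.6 kb upstream of the annotated start, in an intron of another annotated gene (-0.61, adjusted p = 0.00282). They also included the intergenic DHS 9.5 kb (-0.50, adjusted p = 0.00664) and 12.1 kb downstream (-0.78, adjusted p = 0.00148). The other was the one 4.9 kb upstream (-0.30, adjusted p = 0.0463, 0.0556 with the replicate block and 0.0755 without the trend with level, GC content and width). The last was already lower at 0 h (-0.84, adjusted p = 0.0289), and the call 9.5 kb downstream was lost without replicate 6 (adjusted p = 0.067). The DHS 1.6 kb upstream was the most accessible of the locus, with a mean of 4.73 against 4.56 at the promoter. The DHS 8.1 kb downstream had an average of -0.14 (adjusted p = 0.41). The plot along the inhibitor loci shows the Cish averages below 0 at all 6 positions.

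**Figure D2:**
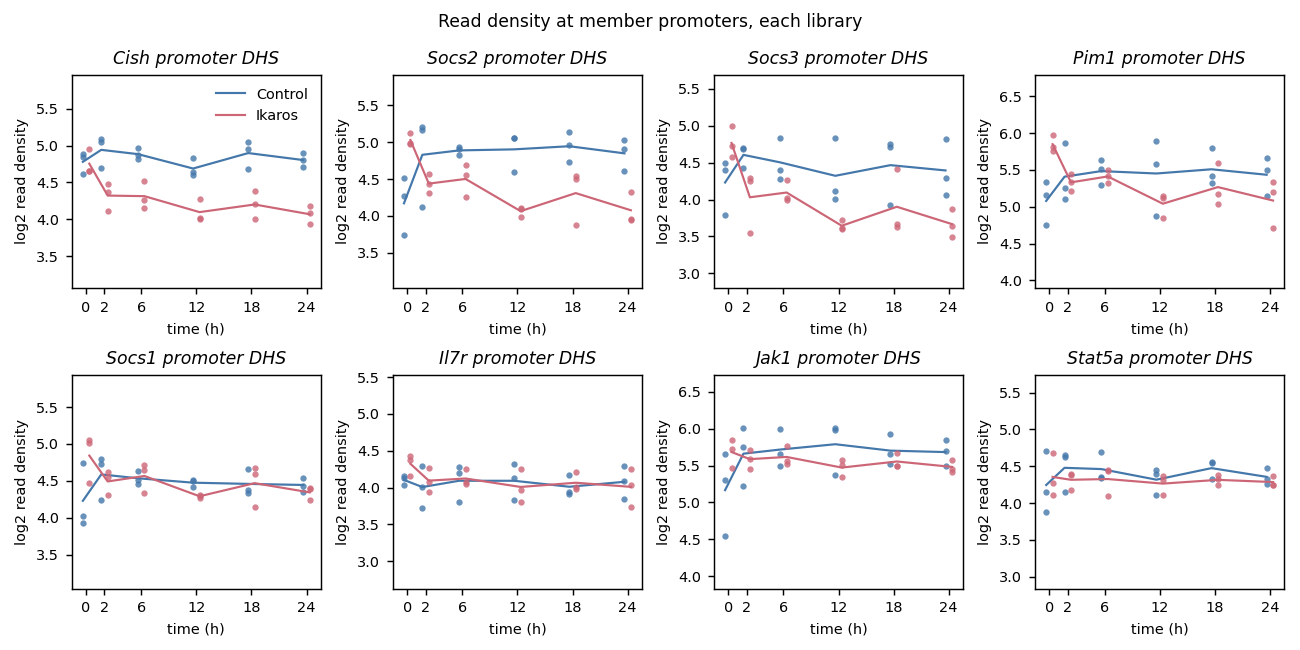
Log2 read density of 8 member promoter DHS in each library (points) against time in hours, with group means joined by lines, for control (blue) and Ikaros cells (red). Where a gene had several promoter DHS, the one with the largest absolute change of the line difference from 0 h to 24 h is shown. Jak3 and Stat5b are not shown. The axes cover the same span with different centres. At Cish all Ikaros points from 2 h on lie below all control points, and at Il7r the lines overlap from 2 h on.

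Socs2, another STAT5-induced inhibitor, is shown next because its promoter holds 1 pair of palindromes with the spacing of the first Cish pair. The starts of the palindromes lie 11 bp apart in both, and the 20 bases from the first to the last letter of the pairs match at 19 positions. In all, 3 of 52788 DHS (0.00568%) held a pair at this distance. The stretch lies outside annotated exons on the minus strand, chr10:95416900-95416927 of GRCm38, with the palindromes in capitals.
Socs2 pair: cggaTTCCTGGAAagTTCCTGGAAagcg

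The Socs2 promoter DHS (chr10:95416660-95417183) was higher in Ikaros cells at 0 h and lower later. At 0 h it stood at 4.99, 5.13 and 4.97 in Ikaros and 4.27, 4.51 and 3.74 in control libraries. At 2 h it stood at 4.43, 4.31 and 4.57 in Ikaros and 5.16, 4.13 and 5.20 in control libraries. The lines had parted at 0 h and overlapped at 2 h. At 6 h it stood at 4.26, 4.55 and 4.69 against 4.82, 4.91 and 4.93 in control libraries, and at 12 h at 4.10, 4.11 and 3.99 against 4.59, 5.06 and 5.06. At 18 h it stood at 4.51, 4.54 and 3.88 against 4.73, 5.14 and 4.97, and at 24 h at 3.96, 3.95 and 4.32 against 5.03, 4.91 and 4.61. From 6 h on every Ikaros library lay below the control libraries of its time, the reverse of their order at 0 h. The difference was 0.86 at 0 h (adjusted p = 0.0135) and -0.77 ± 0.23 (SE) at 24 h (adjusted p = 0.0817), and the change between them, of -1.63 ± 0.32 (SE), passed (adjusted p = 0.0081). When the trend with level, GC content and width was removed, the differences were 0.13 at 0 h and -0.70 at 24 h (adjusted p = 0.734 and 0.0663). The average over 2 to 24 h was -0.61 ± 0.10 (SE, adjusted p = 6.1e-05) and was called under all 40 alternatives. The DHS 0.9 kb upstream, a promoter of 5730420D15Rik, followed the same course (0 h 1.03, average -0.52, adjusted p = 0.0217 and 0.00409). The 3 intronic Socs2 DHS, among them the most accessible of the locus (mean 5.18), had averages from -0.04 to 0.02, none of which passed. The Socs2 promoter was also the 1 member called for an interaction of line and time (F = 7.56, adjusted p = 0.0274), against 1.1% of all DHS, and that call was ended without control 0 h replicate 4 (0.0587) or 6 (0.132) or Ikaros 0 h replicate 4 (0.0678) or 5 (0.0672).

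Socs3 encodes an inhibitor that blocks JAK kinases directly. Its 2 promoter DHS were lower in Ikaros cells in the averaged comparison, and the DHS to either side were higher. At the promoter DHS chr11:117969252-117969382 the 0 h values were 5.00, 4.58 and 4.72 in Ikaros and 4.50, 4.40 and 3.79 in control libraries, without overlap (0.54, adjusted p = 0.183). The 24 h values were 3.49, 3.87 and 3.64 in Ikaros and 4.06, 4.30 and 4.83 in control libraries (-0.73, adjusted p = 0.169). They did not overlap, as at 25.5% of all DHS at that time. Its average was -0.59 (adjusted p = 4.4e-04), and that of the second promoter DHS was -0.39 (adjusted p = 0.00407), which was lost when the trend with level, GC content and width was removed (-0.22, adjusted p = 0.0987). The DHS 6.5 kb downstream of the start had an average of 0.33 (adjusted p = 0.00206) and had been called higher already at 0 h (0.67, adjusted p = 0.0126). The one 6.2 kb upstream had an average of 0.46 (adjusted p = 0.0011) and a similar difference at 0 h (0.45, adjusted p = 0.195), where the Ikaros libraries, at 3.78, 4.21 and 4.14, lay above the control libraries, at 3.36, 3.70 and 3.73. The upstream DHS holds 1 palindrome and is intergenic. It is shown, on the minus strand at chr11:117976180-117976278, because it holds a palindrome but had an average above 0.
Socs3 upstream DHS: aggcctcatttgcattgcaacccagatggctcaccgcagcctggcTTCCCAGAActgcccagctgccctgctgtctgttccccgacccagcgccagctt
The 1 remaining member with a palindrome was the Il7r promoter, which did not pass in any comparison. Its stretch, chr15:9530001-9530027 on the minus strand, is given for comparison.
Il7r promoter: ttcaggagcTTCAGGGAAtaccaagat
The core TGGGAA, which Ikaros binds, was counted on both strands. It occurred in 13 of 48 members (27.1%), against 26.7% of all DHS. The palindrome occurred in 4 of 48 members (8.33%) against 10.0% of all DHS. Neither share was adjusted for width, and the members were narrower, with a median of 210 bp against 500 bp. Among DHS with a width near 500 bp, the core occurred in 5 of 7 members (71.4%), against 39.2% of all such DHS. The palindrome occurred there in 1 of 7 members (14.3%), against 15.5%. With only 7 members, these shares are a description and were not tested.

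**Figure D3:**
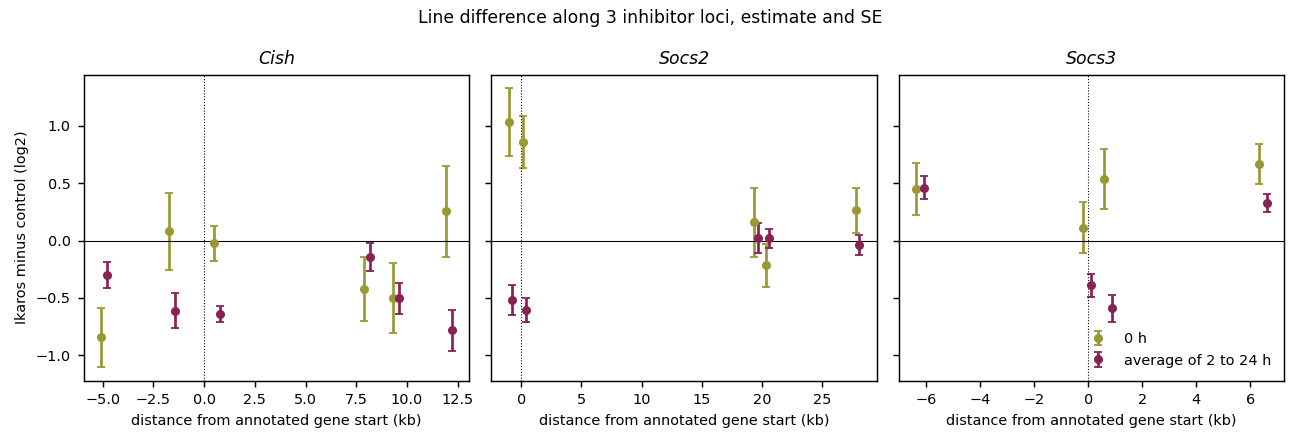
Ikaros minus control difference (log2 read density, estimate and SE from limma) at the DHS of Cish, Socs2 and Socs3 against the distance of the DHS centre from the annotated gene start in kb. Olive points are 0 h and purple points the average of 2 to 24 h, which is -0.64 at the Cish promoter and -0.61 at the Socs2 promoter.

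Socs1 encodes the other JAK inhibitor. Its wide promoter DHS stood at 5.05, 4.46 and 5.01 in Ikaros and 3.92, 4.74 and 4.03 in control libraries at 0 h, which overlapped although the difference passed (0.61, adjusted p = 0.0338). Its sign turned when the trend with level, GC content and width was removed (-0.27, adjusted p = 0.312). At 24 h the values were 4.39, 4.24 and 4.40 against 4.43, 4.35 and 4.54, a difference of -0.10 (adjusted p = 0.871). The narrow promoter DHS about 1.0 kb upstream was lower in the averaged comparison (-0.34, adjusted p = 0.00677), but not without replicate 6 (-0.23, adjusted p = 0.214), with quantile normalization (-0.17, adjusted p = 0.121) or without that trend (-0.15, adjusted p = 0.185). Pim1 had its most accessible DHS at the start of the gene and shared with Gm26885. It stood at 5.97, 5.81 and 5.76 in Ikaros and 5.16, 5.33 and 4.75 in control libraries at 0 h, without overlap (0.77, adjusted p = 0.0201). Here too the sign turned without the trend (-0.29, adjusted p = 0.203). At 24 h the values of 5.33, 5.20 and 4.72 overlapped those of the control libraries, at 5.49, 5.15 and 5.66. The intergenic DHS 12.8 kb downstream had an average of -0.61 (adjusted p = 0.00112) and the one 7.5 kb downstream of -0.24 (adjusted p = 0.0202), the latter lost with quantile normalization (-0.16, adjusted p = 0.113) and without the trend (-0.10, adjusted p = 0.33). At 12.8 kb the difference was -0.75 already at 0 h (adjusted p = 0.0975) and 0.33 at 2 h (adjusted p = 0.775). The same DHS had the most negative member differences at 6, 18 and 24 h, of -0.92, -0.90 and -0.95, none of which passed (adjusted p = 0.15, 0.163 and 0.111). The promoter DHS of Pim1 had averages of -0.23 and -0.19 (adjusted p = 0.0744 and 0.19).

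The change of the line difference from 0 h to 24 h was negative and past the threshold at 5 members, all of them promoter DHS, and positive and past it at 0, against 6.26% of all DHS. Beside the 2 DHS at Socs2, these were the Socs3 promoter (-1.26, adjusted p = 0.0418), the Pim1 promoter (-1.12, adjusted p = 0.0317) and the Cish promoter (-0.71, adjusted p = 0.0466). These changes went with a shift that promoters share across the genome. The 0 h difference had a median of 0.34 over all promoter DHS and -0.19 over the DHS away from promoters, and the change had medians of -0.42 and 0.31. The median change of the 19 member promoter DHS was -0.67, and 26.3% of them were called against 10.6% of all promoter DHS. When the trend of values with level, GC content and width was removed from each library, 0 members were called at 0 h and 0 for the change, and the change was -0.83 at the Socs2 promoter and -0.21 at the Cish promoter (adjusted p = 0.125 and 0.695). With the replicate block the Socs3 and Cish changes missed the threshold (adjusted p = 0.0534 and 0.0612).

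Single libraries also decided several of these calls. Control 0 h replicate 6 ended the change at the Socs3 (adjusted p = 0.124), Pim1 (0.0946) and Cish (0.119) promoters and at 5730420D15Rik (0.0860), and the 0 h calls at Socs2 (0.119), 5730420D15Rik (0.235), Pim1 (0.135), Socs1 (0.160) and upstream of Cish (0.112). Of the 12 libraries in the change, 10 ended the Cish call, 8 the Socs3 call, 6 the Pim1 call and 2 the 5730420D15Rik call, whereas 0 ended the Socs2 promoter call. Of the 6 libraries at 0 h, 4 ended the Socs1 call, 3 that at 5730420D15Rik and 3 that upstream of Cish, 2 the Pim1 call, and 1 each the Socs2 promoter and the downstream Socs3 call (control replicate 4, adjusted p = 0.104).

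Within a line, time changed no single member DHS past the threshold. In Ikaros cells 0 members were called for any change over the 6 times, with 7 at an unadjusted limma p under 0.05 and 2.29% of all DHS called. In control cells 0 were called, against 0.148% of all DHS, with 6 at an unadjusted p under 0.05, against 6647 of all DHS. The nearest to the threshold was the Cish promoter in Ikaros cells (F = 5.31, adjusted p = 0.0535), where the same test gave F = 0.74 in control cells (adjusted p = 0.876).

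The density was also summed over the DHS of each gene and tested over 29076 genes in the same way. Cish was the 1 member locus called at 2, 6, 12, 18 and 24 h, where 0.196%, 1.43%, 3.7%, 1.5% and 3.31% of genes were called. The tests of 2 to 18 h, over time and of the interaction were added for loci after the values had been seen. The Cish difference was -0.55 at 2 h (adjusted p = 0.045), -0.55 at 6 h (adjusted p = 0.0185), -0.59 at 12 h (adjusted p = 0.00574) and -0.54 at 18 h (adjusted p = 0.0177). Its 6 DHS summed to 32.1, 34.6 and 39.5 RPM (reads scaled to library size) in control and 22.7, 24.5 and 21.0 in Ikaros libraries at 24 h, without overlap (-0.64 on the log2 scale, adjusted p = 0.00258). At 0 h they summed to 33.0, 33.2 and 29.3 in control and 31.4, 29.2 and 28.5 in Ikaros libraries (-0.10, adjusted p = 0.574). The Cish call at 24 h was lost without replicate 5 or 6 as a whole (adjusted p = 0.0859 and 0.0947) and with the mean log2 over the DHS (0.0557), which also ended the calls at 2, 6, 12 and 18 h (adjusted p = 0.177, 0.0971, 0.0542 and 0.274). At 2 h the replicate block (0.0681) and each of 5 of the 6 libraries ended the call (0.0803 to 0.295), at 6 h 4 of 6 (0.0529 to 0.147), at 12 h control replicate 6 (0.0537) and at 18 h replicate 6 of control (0.13) or of Ikaros (0.154). Leaving out replicate 5 as a whole ended the call at each of these times (adjusted p = 0.511, 0.396, 0.161 and 0.171 at 2, 6, 12 and 18 h). In the averaged comparison 4 loci were called, against 34.6% of genes, and all were lower in Ikaros cells. They were Cish (-0.57, adjusted p = 4.6e-10), Pim1 (-0.26, adjusted p = 6.1e-04), Socs2 (-0.22, adjusted p = 0.00239) and Stat5a (-0.16, adjusted p = 0.00462). Of the 7 Stat5a DHS, 6 are shared with Stat5b, whose own average was 0.00 (adjusted p = 0.992), and the Stat5a call was lost with the mean log2 over the DHS (-0.02, adjusted p = 0.806). The remaining DHS is the exonic DHS of Stat3, the only one in the Stat5a window called in the average (-0.42). That call was lost without the trend with level, GC content and width (limma adjusted p = 0.0782). With quantile normalization the Socs2 and Stat5a averages were lost (-0.10 and -0.08, adjusted p = 0.137 and 0.141).

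At 0 h 5 loci were called, against 29.6% of genes, and all were higher in Ikaros cells, from 0.35 at Pim1 to 0.45 at Jak3. The change from 0 h to 24 h called 5 loci, against 22.7% of genes, from -0.69 at Pim1 to -0.54 at Cish. Removal of the trend with level, GC content and width, which left 0 single member DHS called at 0 h or for the change, was not applied to loci. Over time, the Pim1 locus (F = 4.88, adjusted p = 0.0243) and the Jak3 locus (F = 4.25, adjusted p = 0.0425) passed in Ikaros cells, against 8.51% of genes, and 0 loci passed in control cells, against 0.162% of genes, with 0 at an unadjusted limma p under 0.05. The Pim1 means in Ikaros cells went from 50.8 RPM at 0 h to 34.9 at 24 h, and the Jak3 means from 41.3 to 29.6. The Jak3 locus sums the Jak3 promoter DHS with the intron and promoter DHS of Unc13a. The Jak3 promoter DHS alone passed in no comparison, and what each DHS gave to the locus calls was not tested. The interaction of line and time passed at the Jak3, Socs2 and Pim1 loci (F = 4.14, 4.07 and 3.98, adjusted p = 0.0415, 0.0439 and 0.0472), against 10.8% of genes. The replicate block ended these interaction calls (adjusted p = 0.0555, 0.0628 and 0.0622) and the Jak3 call over time (0.0573), and the Pim1 call over time was ended without Ikaros 0 h replicate 4 (0.247) or 6 (0.114). Single libraries ended the Jak3 call over time in 14 of 18 cases and the interaction in 16 (Jak3), 23 (Socs2) and 24 (Pim1) of 36. The Il7r locus, with group means from 10.7 to 13.1 RPM, and the Jak1 locus, from 61.7 to 66.7, passed in none of these comparisons. The plot of summed density shows the Cish lines parting after 0 h and the Il7r and Jak1 lines overlapping throughout.

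**Figure D4:**
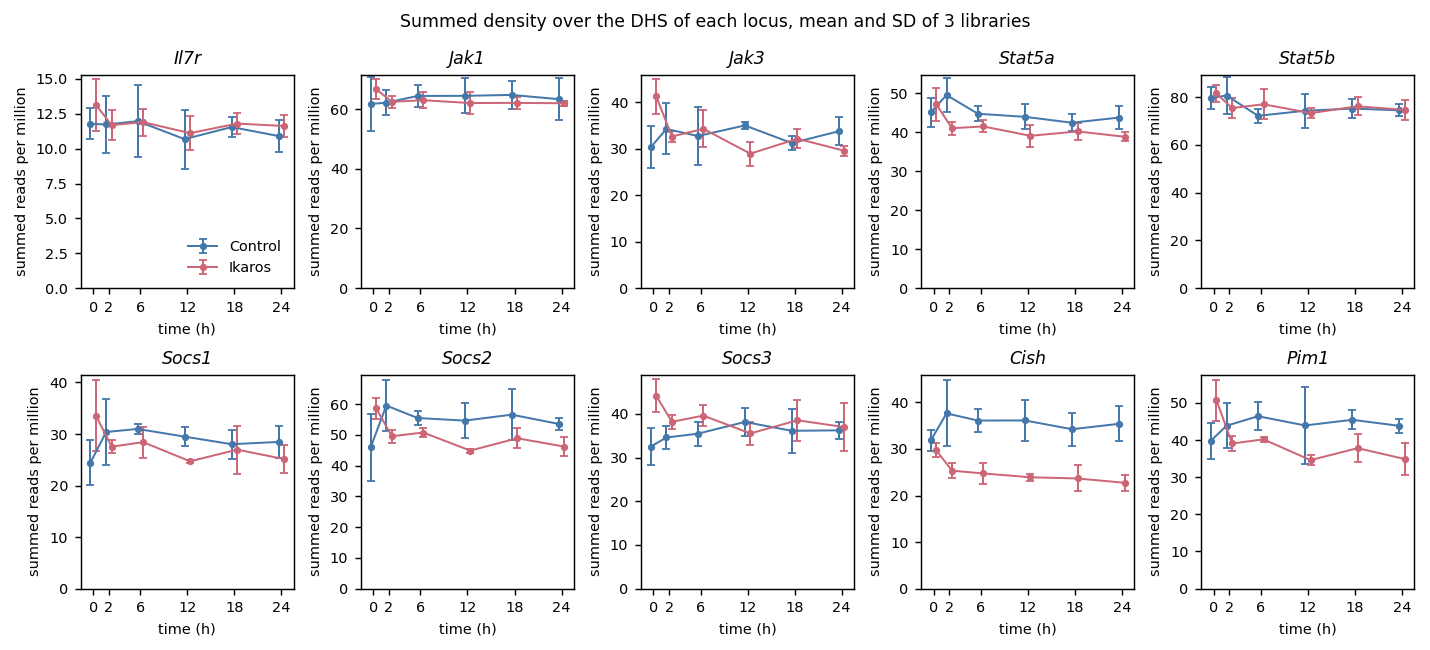
Density summed over the DHS of each gene in RPM (mean and SD of 3 libraries, axis from 0) against time in hours for control (blue) and Ikaros cells (red). At Cish the Ikaros means lie between 22.7 and 25.3 from 2 h on and the control means between 34.2 and 37.6.

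A further 30 genes of the pathway, among them the other receptor chains, the remaining JAK, STAT and SOCS genes and the survival and cell cycle genes downstream, had 150 DHS that were not members. At 24 h 4 of 150 were called (2.67%, against 1.33% of all DHS) and all were lower in Ikaros cells. They were an intron DHS of Pik3r1, a regulatory subunit of phosphoinositide 3-kinase (-1.24, adjusted p = 0.0126), the promoter of Ccnd2, which encodes the cell cycle driver cyclin D2 (-0.90, adjusted p = 0.0287), an intron DHS of Pik3cd, a catalytic subunit of the same kinase (-0.79, adjusted p = 0.0382), and an intergenic DHS near Il4ra, the interleukin 4 receptor chain (-0.91, adjusted p = 0.0435). At 0 h 28 were called (18.7%, against 12.9%), 25 higher and 3 lower, with the largest values at an intron DHS of Pim2 (1.73, adjusted p = 0.038) and the promoter of Jak2 (1.57, adjusted p = 3.8e-04). At 6 h 1 was called, the same Jak2 promoter (1.04, adjusted p = 0.0452), and at 12 h 3 (Pik3r1, Pik3cd and Ccnd2, all lower). At 2 h and at 18 h 0 were called. An unadjusted limma p under 0.05 was found there at 16 and 20 of 150, against 5294 and 6906 of all 52788 DHS. The change from 0 h to 24 h called 20 (13.3%, against 6.26%), 19 of them negative, and the averaged comparison 59 (39.3%, against 29.5%), of which 41 were lower and 18 higher. Over all promoter DHS, 26.0% were called at 0 h and 10.6% for the change, 1374 of these 1450 negative. The promoters among the 150 were not counted, so the shares are not set against promoters alone. In Ikaros cells 7 were called for change over time (4.67%, against 2.29%), and 4 were called for the interaction (2.67%, against 1.1%). In control cells 0 were called for change over time, with 27 at an unadjusted limma p under 0.05, against 6647 of all 52788 DHS. With the replicate block the counts were 0 at 6 h, 2 at 12 h, 2 at 24 h, 14 for the change and 0 for the interaction.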

How the data were processed

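Per the study's methods and the labels, the authors trimmed reads to 36 bp and mapped them to mm10 (Bowtie2). HOMER peaks of 2 kinds, narrow and broad, were found per replicate and joined into consensus DHS. They counted reads with bedtools, left out DHS with few reads, scaled by RPKM and TMM and removed noise with ARSyN, which models the groups. The deposited values are log2 read densities. The base was read from the values, since base 2 gives library sums of 369487 to 432755 RPM over the DHS and base e at least 1575615. Some libraries of Ikaros replicate 4 were sequenced again. No source says if DHS starts are 0-based or 1-based, so positions may be off by 1 bp.

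All 36 libraries were fitted with 12 group means in limma 3.58.1 (R 4.3.3, eBayes with an intensity trend). Adjusted p-values are two-sided Benjamini-Hochberg values over all DHS or genes. The replicate numbers mark shared batches in the labels, so a fit with the replicate block was an alternative. Same-numbered libraries of a time deviated with correlations of -0.18 to 0.18 (median -0.02), over 0.1 in 3 of 18 pairs. Differently numbered libraries gave -0.23 to 0.19 (median 0.01), over 0.1 in 3 of 36 pairs. These deviations were taken after the authors' noise removal, so they cannot show how far libraries of a batch were alike before it. Other alternatives were quantile normalization, removal of the trend with level, GC content and width, a spread per group, no intensity trend, the least accessible DHS left out, the compared groups alone, gene bodies with no extension, mean log2 per locus, and each library or replicate left out. Removal of that trend, no intensity trend and leaving out the least accessible DHS were applied to single DHS only, not to loci. The averaged comparison and the locus tests other than 0 h, 24 h and their change were added after seeing the data, and the members and lists were chosen with earlier results of these data known. Described with values are the promoter DHS of the members, the most accessible DHS of each gene, the called DHS and the extreme DHS of each comparison. The result for 1 of the cell type markers is not reported here.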

Additional observations from a re-analysis of the deposited data

Results flagged for a closer look

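The difference between the lines itself differed between 0 h and 24 h, by the limma test of that change, at 5 member DHS and 5 member loci. It changed by -1.63 at the Socs2 promoter, -1.61 at the neighbouring 5730420D15Rik promoter, -1.26 at the Socs3 promoter, -1.12 at the Pim1 promoter and -0.71 at the Cish promoter. Over summed loci it changed by -0.64 at Jak3, -0.63 at Socs1, -0.60 at Socs2, -0.54 at Cish and -0.69 at Pim1. The Jak3 sum includes the intron and promoter DHS of Unc13a. At the Socs2 promoter the interaction of line and time over all 6 times passed as well (F = 7.56), and over loci it passed at Jak3 (F = 4.14), Socs2 (F = 4.07) and Pim1 (F = 3.98). Promoter DHS across the genome moved the same way (median change -0.42), and the 0 h cells were collected separately. The part of that collection in these changes was not tested. With 3 libraries in each group, no group was large enough for a test of single outlying samples.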

How the results depend on the processing

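The counts of called members depended on the settings more than the averaged difference did. At 0 h 8 members were called, against 3 with quantile normalization, 0 with the trend of level, GC content and width removed, 1 with a spread per group, 4 over gene bodies with no extension and 0 with the compared groups alone. For the change from 0 h to 24 h, 5 became 1 with quantile normalization, 0 without the trend, 2 with a spread per group and 0 with the compared groups alone. At 12 h 1 became 0 with quantile normalization, without the trend, without the least accessible DHS and with the compared groups alone, and at 18 h with the first and last of these. At 24 h 1 became 2, 2 and 5 with quantile normalization, without the trend and with a spread per group, and at 6 h 0 became 1 and 2 with the first and second of these. The interaction call was lost (0) in all 3. Over time in Ikaros cells, 0 became 1 without the least accessible DHS and 5 with the compared groups alone. The averaged comparison called 21, and 7 over gene bodies with no extension, and removing the trend ended 6 of its calls (Cish 4.9 kb upstream, Pim1 7.5 kb downstream, the narrow Socs1 and second Socs3 promoter DHS, the Stat3 exon and the Stat5b intron). Among loci, 5 calls at 0 h became 3 (mean log2), 2 (quantile), 2 (spread per group) and 0 (compared groups alone), 5 of the change became 3 (mean log2) and 2 (quantile), 1 at 24 h became 0 (mean log2), 2 (spread per group) and 2 (compared groups alone), and 4 of the average became 2 (quantile). The locus call at 2 h became 0 with the block, mean log2, no extension, spread per group, quantile and compared groups alone, at 6 h and 18 h 0 with mean log2, and at 12 h 0 with mean log2 and compared groups alone. Over time in Ikaros cells 2 loci became 1 (block), 0 (mean log2), 1 (no extension) and 0 (quantile), and 3 of the interaction became 0 (block, mean log2, spread per group, quantile) and 1 (no extension).

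Labels give each replicate number as a shared batch. With the replicate block, 3 rather than 5 members were called for the change from 0 h to 24 h and 0 rather than 1 at 12 h, where the Cish promoter had adjusted p = 0.0655. The average was also lost at the Cish DHS 4.9 kb upstream (0.0556), leaving 20 calls. Over loci the block ended the Cish call at 2 h (0.0681), the Jak3 call over time (0.0573) and the 3 interaction calls (0.0555 to 0.0628).

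When single libraries or replicates were left out, the number of called members ranged from 2 to 9 at 0 h, 0 to 1 at 2, 12, 18 and 24 h, 0 to 7 for the change, 0 to 1 over time in either line, 0 to 2 for the interaction and 12 to 22 for the average, and was 0 at 6 h. For loci it ranged from 2 to 5 at 0 h, 0 to 2 at 12 h, 0 to 1 at 2, 6, 18 and 24 h, 0 to 2 over time in Ikaros cells, 0 to 4 for the interaction, 0 to 5 for the change and 3 to 5 for the average. Of 2411 values of single DHS and loci under an alternative, 1968 were counted as the same, 430 lost the call, 6 gained one and 7 were counted as reversed. A change of sign of at most 1 SE at a DHS called in neither fit was counted as the same. The Il7r promoter at 24 h, for example, had -0.07 in the main fit and up to 0.07 under an alternative. The 7 values counted as reversed were as follows. Without the trend, the sign turned at 24 h at the Jak1 promoter (0.070) and the Stat5b promoter DHS 164 bp from the start (-0.11), at 0 h at Pim1 (-0.29) and the wide Socs1 promoter DHS (-0.27), and for the change at that Socs1 DHS (0.20) and Stat5a (0.53). Without replicate 6 it turned for the change at the narrow Pim1 promoter DHS, whose values with a replicate or library left out ranged from -0.70 to 0.12. The causes were not tested. Differences within the spread of 3 libraries were not detectable.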

Other observations

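The averaged difference between Ikaros and control cells from 2 h to 24 h was set beside the number of palindromes TTCNNNGAA over all 52788 DHS. The median was 0.05 over the 47500 DHS with 0 palindromes, 0.01 over the 4893 with 1, 0.01 over the 371 with 2 and -0.08 over the 24 with 3 or more. Among promoter DHS the medians were -0.01, -0.04, -0.02 and -0.24, the last over 6 DHS, of which 3 were called lower and 0 higher. The Cish promoter is 1 of those 6, so the lowest medians rest on few DHS, among them the one that prompted the comparison, and there was no steady order from 0 to 2 palindromes among promoters. DHS with palindromes were also wider, with a median of 226 bp for 0 and 505 bp for 3 or more over all DHS. These values are a description, and no test was made of them.

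The DHS elsewhere in the genome whose values over the 36 libraries were most like those of the Il7r promoter were a promoter DHS of Rabggta (Pearson r = 0.70), an intergenic DHS whose nearest start is that of Gm8275 (r = 0.69) and an intronic DHS nearest to Gm42435 (r = 0.66). They were the 3 highest of all DHS and share the libraries and their noise removal with it.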
